A study of Mus musculus with 6 samples.

Results

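The opioid genes described here are the precursors Pomc, Penk, Pdyn and Pnoc, the prohormone convertases Pcsk1 and Pcsk2, and the receptors Oprm1, Oprd1, Oprk1 and Oprl1. They were taken by symbol, whatever their counts, and all 10 were found among the 35976 genes listed for each culture. Opioid peptides are made inside larger precursor proteins, which the convertases cut in dense-core granules to release β-endorphin, enkephalins, dynorphins or nociceptin. The receptors are G-protein-coupled and act mainly through inhibitory Gi/o proteins. On sensory neurons of the dorsal root ganglion (DRG), a cluster of cell bodies next to the spinal cord, they are known for lowering calcium entry and transmitter release.

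RNA was sequenced from 6 cultures of lumbar DRG neurons from adult wild-type C57BL/6 mice of both sexes, kept in medium with serum, nerve growth factor and glial cell line-derived neurotrophic factor. Exposure began 24 h after plating and lasted 24 h, in 3 cultures to HC-HA/PTX3 (15 µg/mL) and in 3 to vehicle. HC-HA/PTX3, a complex built on hyaluronic acid, is purified from amniotic membrane of human origin, and the comparison asks whether the RNA of opioid genes, Pomc above all, differed after this treatment. The study speaks of biological replicates, but the labels do not say whether the cultures came from separate animals, so the p-values measure only the spread between these cultures.

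The libraries held 42516054, 42617496 and 54117547 counts in vehicle replicates 1, 2 and 3, and 37998071, 37434266 and 38420247 in HC-HA/PTX3 replicates 1, 2 and 3. Levels are given in CPM, counts divided by library size after scaling by the trimmed mean of M-values (TMM), and 1 CPM equalled 37.1 to 56.0 counts. Where a gene had no count, its level could still be as high as 0.0536 to 0.0808 CPM, the value of 3 counts in a culture. These limits and the intervals of single cultures cover counting error only. Groups were compared by edgeR's quasi-likelihood test over 18277 genes that passed its low-count filter, among them 8 of the 10 opioid genes. Pnoc and Oprk1 did not pass it. Calls needed both an adjusted p-value (Benjamini-Hochberg) under 0.05 and a log2 fold change beyond 0.5 in either direction. The test was run with the treatment as its only term, and again with the replicate number as a block, termed the blocked fit, because cultures with the same number departed together from their group means.

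The neuronal label was checked against markers first. All 8 neuronal markers (Tubb3, Snap25, Rbfox3, Prph, Calca, Scn10a, Trpv1 and Nefh) were present in every culture, at a summed 5284, 4634 and 5139 CPM with vehicle and 5515, 4954 and 5639 CPM with HC-HA/PTX3. The most abundant was Tubb3, a neuronal tubulin, at a mean of 1294 CPM over all cultures. Markers of other cells were present too. Satellite glia markers summed to 1484, 770.4 and 340.4 CPM in vehicle replicates 1, 2 and 3 and to 1367, 795.7 and 366 CPM in the treated cultures, in the order of the replicate numbers in both groups. Fibroblast markers summed to 1488, 1573 and 644 CPM with vehicle and to 762, 1041 and 234 CPM with HC-HA/PTX3, lower in the treated culture of every pair, with most of the difference in the collagens Col1a1 and Col3a1. Since these are bulk samples, fewer cells of a type and less RNA per cell cannot be told apart.

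No opioid gene was called in either fit. With the treatment as the only term, edgeR called 0 of the 8 tested opioid genes and 0 of all 18277 tested genes (0%). An unadjusted p-value under 0.05 was reached by 0 of the 8 and by 2089 of all tested genes (11.4%). With the replicate number as a block, edgeR called 0 of the 8 and 1591 of all tested genes (8.70%), 607 higher and 984 lower. In that fit 1 of the 8, Pomc, had an unadjusted p-value under 0.05, against 6068 of all tested genes (33.2%). Without the fold-change threshold, the blocked fit still called 0 of the 8, against 3505 of all tested genes (19.2%). The groups overlapped for each of the 8 tested opioid genes, whereas 3291 of all tested genes (18.0%) had groups that did not overlap. Vehicle and treated cultures differed in the same direction in each of the 3 pairs for 5 of the 8 and for 9851 of all tested genes (53.9%). The count by DESeq2 was 0 of the 8 in both designs, beside 343 genes without and 1211 with the block, where Pomc was given no adjusted p, and by limma-voom it was 0 of the 8, beside 0 and 1569 genes. Batch adjustment by ComBat-seq with the replicate number as batch, followed by limma-trend, called 1 of the 8, Pomc, among 2127 of all tested genes (11.6%). By that route Pcsk2, Oprl1 and Oprd1 also had a limma adjusted p under 0.05 (0.0055, 0.0413 and 0.0436), with log2 fold changes of 0.13, -0.35 and -0.17 under the fold-change threshold. Such values were common by this route, where limma gave 9219 of all 18277 tested genes an unadjusted p-value under 0.05. How many of all genes passed the adjusted p alone is not given here.

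**Figure D1:**
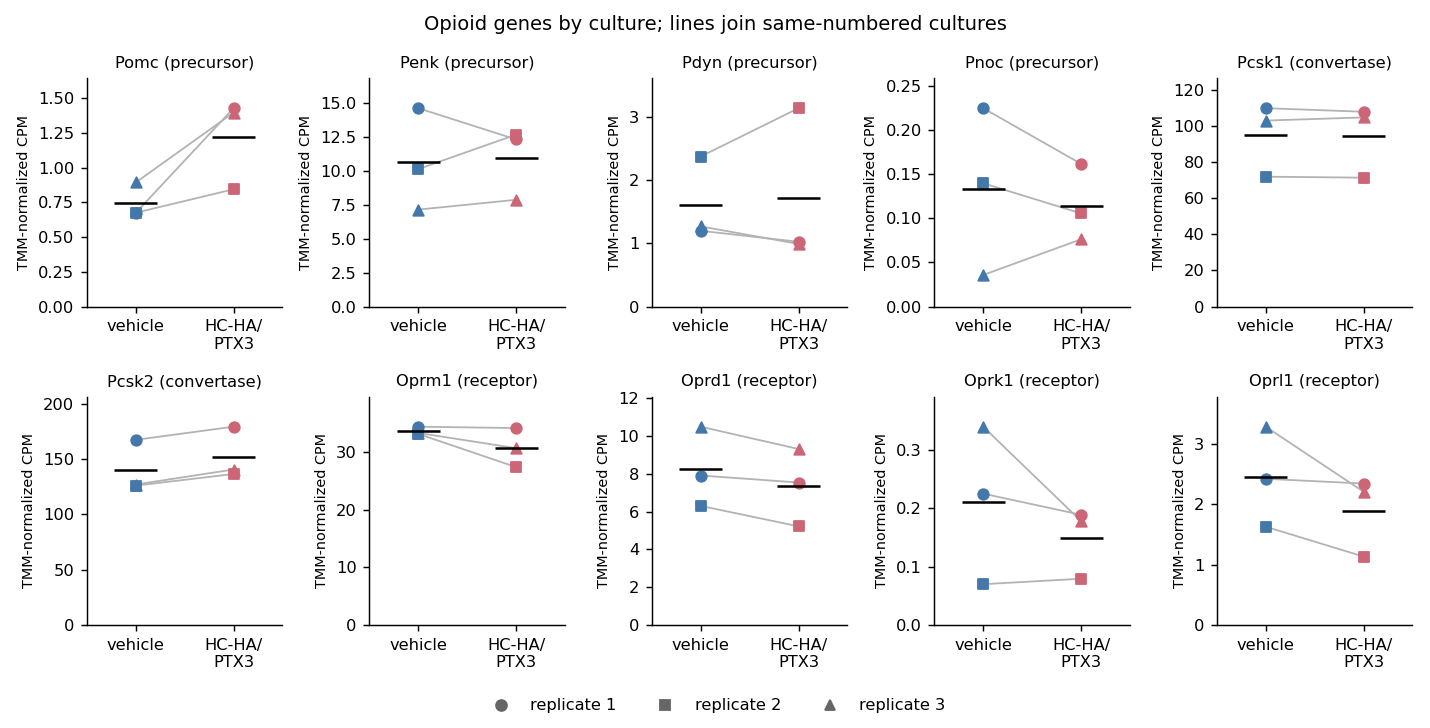
TMM-normalized CPM of the 10 opioid genes in each culture, with vehicle in blue, HC-HA/PTX3 in red, black bars for the means of 3 cultures and grey lines joining same-numbered cultures. Each vertical axis starts at 0 and has its own range; Pomc and Pcsk2 were higher with HC-HA/PTX3 in 3 of 3 pairs, and Oprm1, Oprd1 and Oprl1 in 0 of 3.

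Pomc encodes pro-opiomelanocortin, the precursor of β-endorphin, adrenocorticotropin and the melanocortins. It lies on the forward strand of chromosome 12 of mm10, from 3954951 to 3960642, with 5 blocks of exons in the GENCODE M21 annotation. The sequence before its start is shown because Pomc had the largest fitted difference among the 8 tested opioid genes. The 250 bases upstream of the RefSeq start (GRCm38.p6, chr12:3954695-3954944, forward strand) are printed 5′ to 3′, with matches to the TATA box letters TATAAA and to the E-box letters CANNTG, searched on both strands, in capitals.
Pomc upstream: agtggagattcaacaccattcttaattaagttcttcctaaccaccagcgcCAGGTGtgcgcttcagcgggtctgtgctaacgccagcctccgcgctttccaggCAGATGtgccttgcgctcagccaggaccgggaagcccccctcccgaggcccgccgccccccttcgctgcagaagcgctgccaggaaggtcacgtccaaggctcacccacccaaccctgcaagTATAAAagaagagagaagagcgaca
The TATA box letters began 25 bases before the start, and the E-box letters began 200 and 147 bases before it. Of 32851 RefSeq windows of the same length, 12.4% held TATAAA and 66.2% held CANNTG. The cyclic AMP response element TGACGTCA, in 1.55% of the windows, had no match in these bases. The promoter table held 7 of the 10 opioid genes, and Penk, Pnoc and Oprk1 had no entry.

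Pomc was a low-count gene in every culture. It had 27, 29 and 50 counts in vehicle replicates 1, 2 and 3, and 53, 32 and 55 counts in HC-HA/PTX3 replicates 1, 2 and 3. In CPM these were 0.674, 0.675 and 0.893 with vehicle and 1.43, 0.844 and 1.397 with HC-HA/PTX3. HC-HA/PTX3 replicates 1 and 3 lay above all vehicle cultures, while HC-HA/PTX3 replicate 2 lay below vehicle replicate 3, so the groups overlapped. The exact 95% Poisson interval of HC-HA/PTX3 replicate 2, 0.577 to 1.19 CPM, held the values of all 3 vehicle cultures, while those of replicates 1 and 3, 1.07 to 1.87 and 1.05 to 1.82 CPM, held none of them. The interval of vehicle replicate 3, 0.663 to 1.18 CPM, overlapped both of the latter. Those of vehicle replicates 1 and 2 ended below them, at 0.981 and 0.969 CPM. Summed over the groups, the 106 vehicle and 140 treated counts gave a ratio of 1.60 per library (95% exact interval 1.24 to 2.09, counting error only). The group means were 0.747 ± 0.126 and 1.22 ± 0.328 CPM (SD, n = 3 each). The exact two-sided permutation test of log2 CPM, which ignores the pairs and cannot give a p under 0.1, gave p = 0.2. The log2 fold change by edgeR was 0.70 (SE 0.299, 95% interval -0.0066 to 1.41, adjusted p = 0.442). In the blocked fit of edgeR it was 0.69 (SE 0.256, 95% interval 0.12 to 1.26, adjusted p = 0.0863). The treated culture was higher in 3 of 3 pairs, by log2 differences of 1.08, 0.32 and 0.65. Pomc was called only after ComBat-seq and limma-trend, at a log2 fold change of 0.64 and an adjusted p of 0.0137. Over all alternatives to the fit with treatment only, its adjusted p ran from 0.0137 to 0.758, and over those to the blocked fit of edgeR from 0.0553 to 0.359.

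Penk, the precursor of the enkephalins, was the most abundant precursor. It had 14.6, 10.1 and 7.13 CPM in vehicle replicates 1, 2 and 3, and 12.3, 12.6 and 7.85 CPM in HC-HA/PTX3 replicates 1, 2 and 3. Replicate 3 was the lowest culture of both groups, and the groups overlapped. Its log2 fold change by edgeR was 0.0441 (SE 0.304, adjusted p = 0.979), and in the blocked fit 0.0685 (SE 0.129, 95% interval -0.22 to 0.36, adjusted p = 0.755). With the treatment only the value turned to -0.18 without vehicle replicate 3, and in the blocked fit to -0.0641 without pair 2. The gene lies on the reverse strand of chromosome 4 from 4133531 to 4138819. Its exons share 233 bases with A830012C17Rik on the opposite strand, which had 1 count in total, and the strand setting of the counting is not given in the sources used here.

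Pdyn, the precursor of the dynorphins (chromosome 2, 129686565 to 129699844, reverse strand), had 48, 102 and 71 counts with vehicle and 38, 119 and 39 counts with HC-HA/PTX3. In CPM these were 1.20, 2.37 and 1.27 with vehicle and 1.02, 3.14 and 0.990 with HC-HA/PTX3. Replicate 2 was the highest culture of both groups. The treated culture was higher in 1 of 3 pairs. The log2 fold change by edgeR was 0.0916 (SE 0.530, adjusted p = 0.975), and in the blocked fit -0.0093 (SE 0.224, 95% interval -0.51 to 0.49, adjusted p = 0.983). With the treatment only it ran from -0.68 without HC-HA/PTX3 replicate 2 to 0.47 without vehicle replicate 2, so its direction depended on the culture left out.

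Pnoc, the precursor of nociceptin (chromosome 14, 65400673 to 65425472, reverse strand), was close to the detection limit. It had 9, 6 and 2 counts with vehicle and 6, 4 and 3 counts with HC-HA/PTX3. The exact 95% Poisson intervals ran from 0.103 to 0.427 CPM in vehicle replicate 1 and from 0.00433 to 0.129 CPM in vehicle replicate 3. Summed over the group, the 17 vehicle and 13 treated counts gave a ratio of 0.929 per library (95% exact interval 0.415 to 2.03), so no difference was detectable at this depth. An exact two-sided permutation test of log2 CPM, which cannot give a p under 0.1 with 3 cultures against 3, gave p = 0.9.

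The convertases were the most abundant of the 10 genes. Pcsk1, also named PC1/3, makes the first cuts in most of these precursors. It lies on the forward strand of chromosome 13 from 75089826 to 75134861, and had 110.0, 72.0 and 103 CPM with vehicle and 108, 71.5 and 105 CPM with HC-HA/PTX3. The same-numbered cultures lay close together, with log2 differences of -0.0262, -0.0111 and 0.0243, while replicate 2 was lowest in both groups. For Pcsk1, the edgeR fit put the log2 fold change at -0.0040 (SE 0.215, adjusted p = 0.997). In the blocked fit of edgeR it was -0.0042 (SE 0.0605, adjusted p = 0.971), with a 95% interval of -0.14 to 0.13 that held no difference as large as the 0.5 threshold.

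Pcsk2, also named PC2, cuts the intermediates further, as in the release of β-endorphin fragments and enkephalins. It spans chromosome 2 from 143546156 to 143816285 on the forward strand. Its levels were 167, 126 and 127 CPM with vehicle and 179, 136 and 141 CPM with HC-HA/PTX3. Replicate 1 was highest in both groups, and the treated culture was higher in 3 of 3 pairs by log2 differences of 0.10, 0.12 and 0.15. For Pcsk2, the edgeR fit put the log2 fold change at 0.12 (SE 0.161, adjusted p = 0.846), and 0.12 in the blocked fit (SE 0.0591, 95% interval -0.0107 to 0.25, adjusted p = 0.185). Without HC-HA/PTX3 replicate 1 it was -0.0081 with the treatment only. On the opposite strand, Pcsk2os1 shares 260 bases with its exons and had 68 to 120 counts per culture, against 5174 to 7111 counts of Pcsk2.

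The receptors gave lower fitted values with HC-HA/PTX3, none of them called. Oprm1, the mu receptor, which binds β-endorphin and enkephalins, lies on the forward strand of chromosome 10 from 6758506 to 7038198. It had 34.5, 33.2 and 33.4 CPM with vehicle and 34.2, 27.4 and 30.7 CPM with HC-HA/PTX3. The vehicle cultures had an SD of 0.676 CPM, and of the treated cultures only replicate 1 reached their range. The treated culture was lower in 3 of 3 pairs, by log2 differences of -0.0102, -0.28 and -0.12. For Oprm1, the log2 fold change by edgeR was -0.13 (SE 0.114, adjusted p = 0.733), and in the blocked fit -0.13 (SE 0.0825, 95% interval -0.32 to 0.0482, adjusted p = 0.285). With the treatment only it was -0.20 without HC-HA/PTX3 replicate 1 and -0.0592 without HC-HA/PTX3 replicate 2, and in the blocked fit -0.0686 without pair 2. Ipcef1, on the opposite strand, shares 96 bases with the exons of Oprm1 and had 51 to 104 counts per culture.

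Oprd1, the delta receptor, for which enkephalins are the main ligands, lies on the reverse strand of chromosome 4 from 132110726 to 132144486. It had 7.92, 6.31 and 10.5 CPM with vehicle and 7.54, 5.22 and 9.32 CPM with HC-HA/PTX3. The order of the replicate numbers was the same in both groups, with replicate 3 highest and replicate 2 lowest. The treated culture was lower in 3 of 3 pairs. For Oprd1, the edgeR fit put the log2 fold change at -0.16 (SE 0.277, adjusted p = 0.887), and -0.17 in the blocked fit (SE 0.119, 95% interval -0.43 to 0.0948, adjusted p = 0.352). With the treatment only it turned to 0.0466 without vehicle replicate 3 and to 0.0227 without HC-HA/PTX3 replicate 2.

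Oprl1, the nociceptin receptor (chromosome 2, 181715016 to 181720985, forward strand), had 97, 70 and 184 counts with vehicle and 87, 43 and 87 counts with HC-HA/PTX3. In CPM these were 2.42, 1.63 and 3.29 with vehicle and 2.34, 1.13 and 2.21 with HC-HA/PTX3. Replicate 2 was lowest in both groups, the groups overlapped, and the treated culture was lower in 3 of 3 pairs. For Oprl1, the log2 fold change by edgeR was -0.37 (SE 0.372, adjusted p = 0.771), and in the blocked fit -0.38 (SE 0.193, 95% interval -0.81 to 0.0525, adjusted p = 0.204). With the treatment only it ran from -0.60 without vehicle replicate 2 to -0.0981 without vehicle replicate 3. In the blocked fit it ran from -0.55 without pair 1 to -0.24 without pair 3, without a call.

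Oprk1, the kappa receptor for dynorphins (chromosome 1, 5588466 to 5606131, forward strand), had 9, 3 and 19 counts with vehicle and 7, 3 and 7 counts with HC-HA/PTX3. The exact 95% Poisson intervals were 0.204 to 0.530 CPM in vehicle replicate 3 and 0.0163 to 0.231 CPM in HC-HA/PTX3 replicate 2. Vehicle replicate 3 alone held 19 of the 31 vehicle counts. The summed counts, 31 with vehicle and 17 with HC-HA/PTX3, gave a ratio of 0.666 per library (95% exact interval 0.346 to 1.24), and the exact permutation test gave p = 0.6. With every gene of at least 1 count entered, edgeR called neither Pnoc nor Oprk1, 0 of the 10 opioid genes in all, against 3 of 30347 genes (0.00989%) without and 2006 (6.61%) with the block. The log2 fold changes in the blocked fit were -0.13 (SE 0.820, adjusted p = 0.969) for Pnoc and -0.50 (SE 0.624, adjusted p = 0.781) for Oprk1.

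**Figure D2:**
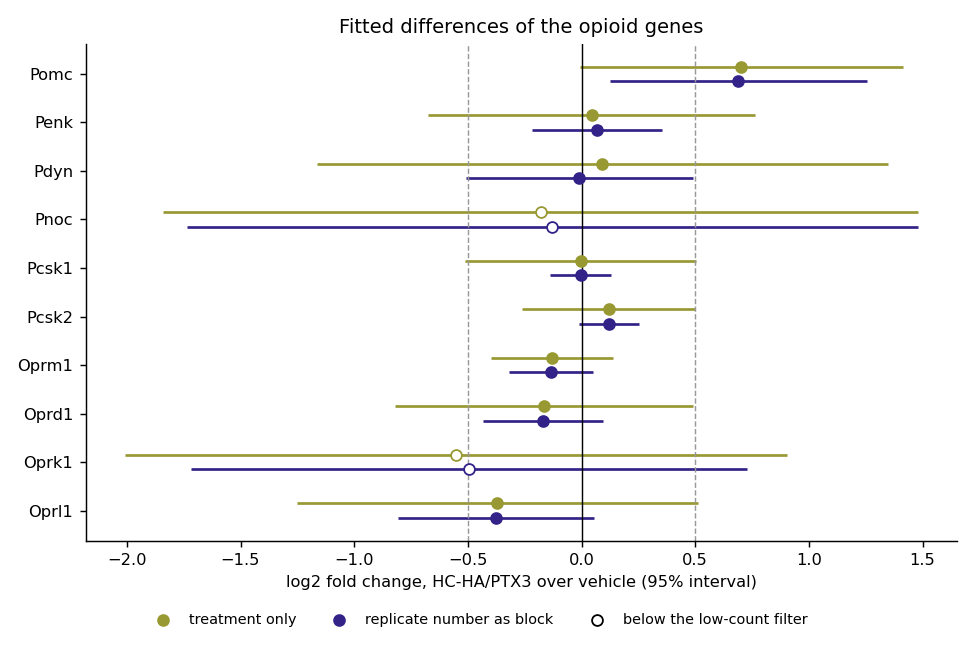
Fitted log2 fold changes of HC-HA/PTX3 over vehicle with 95% intervals, from edgeR with the treatment only (olive) and with the replicate number as block (dark blue), 3 cultures per group. Dashed lines mark the threshold of 0.5 in either direction, and open circles mark Pnoc and Oprk1, fitted without the low-count filter; Pomc in the blocked fit has the only interval that does not hold 0.

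The block changed the SE of the opioid genes to different degrees. The SE of Pcsk1 was 3.55 times as large without the block as with it, and that of Pcsk2 2.72 times, against a median of 1.51 times over all tested genes. For Penk, Pdyn and Oprd1 the ratio was 2.35, 2.36 and 2.33, and for Oprl1 it was 1.92. Oprm1, at 1.38 times, and Pomc, at 1.17 times, were below the median. Without the low-count filter, the SE of Pnoc was 0.746 without and 0.820 with the block, and that of Oprk1 0.654 and 0.624. Same-numbered cultures also shared their marker levels, as in the satellite glia markers above, and the part of glial RNA in these differences between replicates was not tested.

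To compare genes with each other, levels were divided by the length of the annotated exons, counted once where they overlap. This length can exceed that of the transcripts made in these cells, as for Oprm1 with 22 exon blocks. In vehicle cultures, Pcsk2 had 17.7 ± 2.98 and Pcsk1 16.97 ± 3.61 CPM per kilobase (SD, n = 3 each), which did not differ beyond their spread. Pcsk2 lay above 82.9% of 16084 tested genes of known length. Penk followed at 6.49 ± 2.30, Oprm1 at 4.19 ± 0.0841 and Oprd1 at 2.05 ± 0.526 CPM per kilobase, each above the next in all 3 cultures. Oprm1 lay above 48.1% of the tested genes of known length. Oprl1, Pomc and Pdyn, at 0.652 ± 0.221, 0.567 ± 0.0956 and 0.559 ± 0.228 CPM per kilobase, did not differ beyond their spread. Pnoc, at 0.0618 ± 0.0439, and Oprk1, at 0.0231 ± 0.0148 CPM per kilobase, came last, and their ranges overlapped.

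With HC-HA/PTX3 the order of levels was the same down to Oprd1. Pomc then stood next at 0.928 ± 0.249 CPM per kilobase, before Pdyn at 0.595 ± 0.426 and Oprl1 at 0.505 ± 0.177, with ranges of Pomc and Pdyn and of Pdyn and Oprl1 that overlapped. Within the precursors, Penk made up 83.5 ± 5.41% of the summed level per kilobase with vehicle and 80.5 ± 3.22% with HC-HA/PTX3, and Pomc 8.07 ± 3.77% and 11.9 ± 5.12% (SD, n = 3 each). Exact two-sided permutation tests without the pairs gave p = 0.5 for both shares. Within the pairs, the Penk share was lower with HC-HA/PTX3 in 3 of 3 and the Pomc share higher in 2 of 3. Within the receptors, Oprm1 made up 61.1 ± 6.63% with vehicle and 62.5 ± 5.66% with HC-HA/PTX3, Oprd1 29.3 ± 4.31% and 29.3 ± 4.47%, and Oprl1 9.26 ± 2.17% and 7.98 ± 1.72%. Exact permutation tests of these receptor shares, also without the pairs, gave p = 0.7, 1 and 0.4. Within the pairs, the Oprm1 share was higher in 3 of 3 and the Oprl1 share lower in 3 of 3, from 9.32, 7.07 and 11.4% to 9.21, 6.02 and 8.72%.

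**Figure D3:**
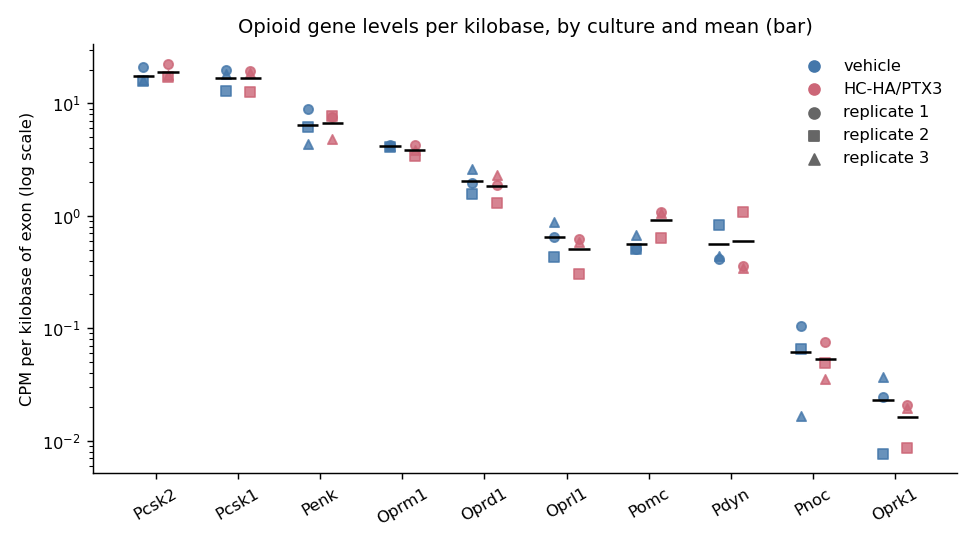
Levels of the 10 opioid genes in CPM per kilobase of annotated exon on a log axis, ordered by the vehicle mean, with 3 cultures per group as points and their mean as a bar. The convertases stand highest, Penk is the highest precursor, Oprm1 the highest receptor, and Pnoc and Oprk1 stand lowest in both groups.

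Genes that process, store, degrade or signal for opioid peptides were taken as 7 lists with 75 genes found by symbol, 71 of them tested. With the treatment only, edgeR called 0 of the 71, and 7 had an unadjusted p-value under 0.05 (against 11.4% of all tested genes), while DESeq2 called 1 of them, Kcnj6, and limma-voom 0. In the blocked fit edgeR called 3 of the 71 (4.23%), against 8.70% of all tested genes, and 25 had an unadjusted p-value under 0.05, against 33.2%. The called genes were Kcnj6, higher, and Pcsk5 and Mc2r, lower. Without the fold-change threshold, that fit called 14 of the 71, against 19.2% of all tested genes. The median log2 fold change in the blocked fit was 0.0324 over the 71 and -0.0067 over all tested genes. Groups did not overlap for 10 of the 71, against 18.0% of all tested genes.

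Among the peptide processing partners, enzymes and cofactors beside the convertases, 1 of 14 tested genes was called in the blocked fit, Pcsk5, and the median log2 fold change was 0.0804. Pcsk5, a convertase of the same family, was at 13.1, 10.6 and 6.05 CPM with vehicle and 9.11, 6.89 and 4.09 CPM with HC-HA/PTX3. Its treated culture was lower in each pair, although the groups overlapped, and the log2 fold change was -0.57 (SE 0.116, edgeR blocked adjusted p = 0.00807). The edgeR call was lost without pair 1 (-0.59, adjusted p = 0.0662) and without pair 2 (-0.55, adjusted p = 0.0510). Cpe, the carboxypeptidase that trims residues left by the convertases, was the most abundant per kilobase. It had 448 ± 42.1 CPM in vehicle and 541 ± 31.8 CPM in treated cultures (SD, n = 3 each), in groups that did not overlap. Its log2 fold change of 0.27 (SE 0.0617, edgeR blocked adjusted p = 0.0130) was under the fold-change threshold. The same held for the known binding partners of the convertases, named here after their values were seen. Pcsk1n, which encodes the Pcsk1 inhibitor proSAAS, had a log2 fold change of 0.34 (SE 0.0607, edgeR blocked adjusted p = 0.00461), and Scg5, which encodes the Pcsk2 chaperone 7B2, had 0.27 (SE 0.0814, edgeR blocked adjusted p = 0.0440).

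The dense-core granule list had 0 of 9 genes called in either fit and a median log2 fold change of 0.0627 in the blocked fit. Vgf, a granule protein and the most abundant per kilobase, had 1046 ± 25.99 CPM in vehicle and 1048 ± 96.0 CPM in treated cultures. Ptprn, a membrane protein of these granules, had the smallest unadjusted p of the list. It was at 314, 330.0 and 299 CPM with vehicle and 388, 404 and 369 CPM with HC-HA/PTX3. All treated cultures lay above all vehicle cultures, with a log2 fold change of 0.30 (SE 0.0595, edgeR blocked adjusted p = 0.00741) that was under the fold-change threshold. Scg2 of the same list also missed only that threshold, at 0.31 (SE 0.0636, edgeR blocked adjusted p = 0.00809), in groups that did not overlap.

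In the list of opioid peptide degradation, 0 of 10 genes were called and the median log2 fold change was -0.0279 in the blocked fit. Ece1, an endothelin-converting enzyme and the most abundant per kilobase over all cultures, though below Npepps in the treated mean, had 174 ± 31.3 CPM in vehicle and 159 ± 34.2 CPM in treated cultures. Anpep, an aminopeptidase that cleaves enkephalins, was at 21.2, 18.7 and 9.05 CPM with vehicle and 26.2, 23.7 and 14.1 CPM with HC-HA/PTX3. Replicate 3 was lowest in both groups, and the log2 fold change of 0.43 (SE 0.1004, edgeR blocked adjusted p = 0.0157) stayed under the fold-change threshold. Dpp3 of the same list also missed only that threshold, at 0.26 (SE 0.0645, edgeR blocked adjusted p = 0.0203), in groups that did not overlap.

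The opioid receptor coupling list, G proteins, arrestins, kinases, regulators and channels, had 1 of 20 tested genes called in the blocked fit, with a median log2 fold change of 0.0389. Kcnj6 encodes GIRK2, a potassium channel subunit opened by G proteins, and lies on chromosome 16 from 94748636 to 94997701 on the reverse strand. It had 80, 98 and 150 counts with vehicle and 169, 135 and 202 counts with HC-HA/PTX3. In CPM these were 1.998, 2.28 and 2.68 with vehicle and 4.55, 3.56 and 5.13 with HC-HA/PTX3, so every treated culture lay above every vehicle culture. The log2 fold change was 0.92 (SE 0.170, edgeR blocked adjusted p = 0.00515), and with the treatment only it was 0.93 (edgeR adjusted p = 0.256). The blocked edgeR call was lost without pair 1, at 0.80 and an adjusted p of 0.0533. The other Kcnj genes of this list did not rise with Kcnj6. Kcnj9 and Kcnj3 had log2 fold changes of -0.73 and -0.0473 without a call (edgeR blocked adjusted p = 0.203 and 0.839). Kcnj5, with 23 counts in total, was not tested. Rgs4, a regulator that shortens Gi/o signals and the most abundant per kilobase, had 820.5 ± 136 CPM in vehicle and 1009.5 ± 149 CPM in treated cultures. Its log2 fold change of 0.30 (SE 0.0850, edgeR blocked adjusted p = 0.0336) was under the fold-change threshold, as were those of Adrbk2, Gnaz and Rgs17, at 0.32, -0.31 and -0.22 (edgeR blocked adjusted p = 0.0329, 0.0113 and 0.0382).

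Among the genes of the melanocortin arm, receptors and accessory proteins for other Pomc peptides, 1 of 7 tested genes was called in the blocked fit. Mc2r, the receptor for adrenocorticotropin, had 17, 15 and 31 counts with vehicle and 9, 4 and 5 counts with HC-HA/PTX3. All treated cultures lay below all vehicle cultures, and the log2 fold change was -1.49 (SE 0.427, edgeR blocked adjusted p = 0.0351). This call rested on few counts. By edgeR the value was -1.93 without pair 1, -1.42 without pair 2 and -1.15 without pair 3 (adjusted p = 0.0555, 0.110 and 0.202), and the call was lost each time. DESeq2 with the block did not call Mc2r either. Mrap, an accessory protein of Mc2r and the most abundant per kilobase, had 0.810 ± 0.320 CPM in vehicle and 0.998 ± 0.237 CPM in treated cultures. The median log2 fold change of the list was 0.0431.

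The list of Pomc regulators had 0 of 8 tested genes called and a median log2 fold change of -0.0187 in the blocked fit. Crhr1, the receptor for corticotropin-releasing hormone, had 46, 29 and 63 counts with vehicle and 28, 5 and 28 counts with HC-HA/PTX3. In CPM, HC-HA/PTX3 replicates 1 and 3 lay just above vehicle replicate 2, so the groups overlapped, and the log2 fold change was -0.96 (SE 0.338, edgeR blocked adjusted p = 0.0732). Crhr1 was called with every gene of at least 1 count in the blocked fit of edgeR (-0.98, adjusted p = 0.00749) and after ComBat-seq and limma-trend (-1.06, adjusted p = 0.0278). The ComBat-seq route also called Neurod1 of this list and Pcsk4 of the processing partners. In the blocked fit these had log2 fold changes of 0.55 and 0.63 without a call (edgeR blocked adjusted p = 0.0947 and 0.128). Stat3, the most abundant per kilobase, had 483 ± 9.39 CPM in vehicle and 457 ± 26.6 CPM in treated cultures. The non-classical opioid binding list had 0 of 3 genes called and a median log2 fold change of -0.0255 in the blocked fit. Ackr3, a scavenger receptor for opioid peptides, had a log2 fold change of -0.36 (SE 0.129, edgeR blocked adjusted p = 0.0756). Ogfrl1, related to the opioid growth factor receptor and the most abundant per kilobase of that list, had 108 ± 20.97 CPM in vehicle and 112 ± 24.35 CPM in treated cultures.

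**Figure D4:**
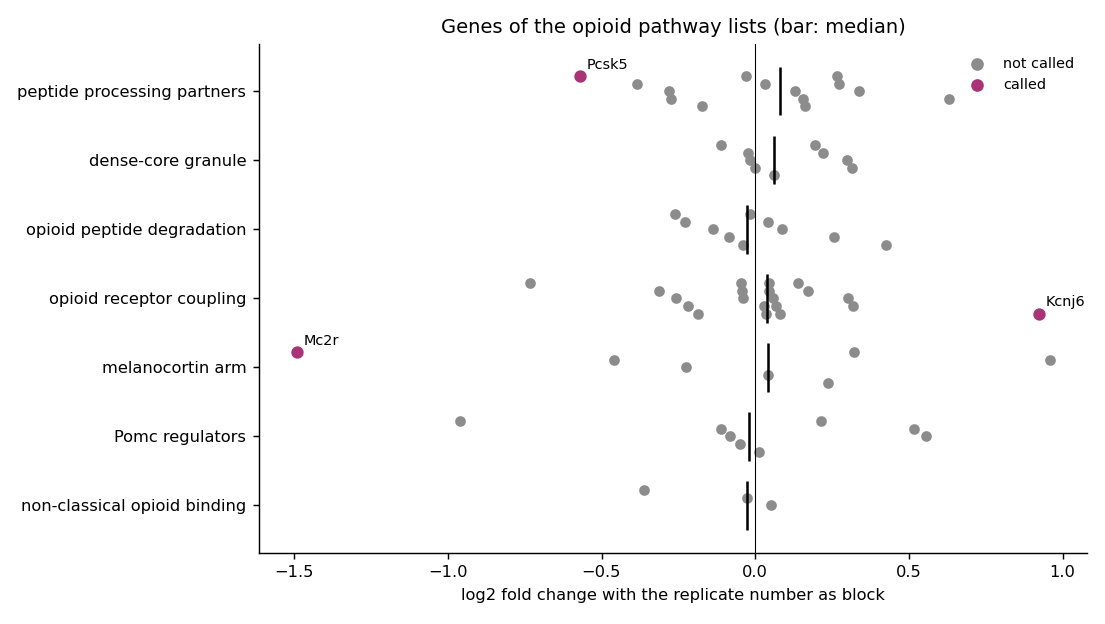
Log2 fold changes of HC-HA/PTX3 over vehicle in the blocked fit for 71 tested genes of 7 opioid pathway lists, with each list's median as a bar and called genes in purple. Kcnj6, Pcsk5 and Mc2r are the only called genes in these lists.

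Marker levels of neuron classes that carry opioid genes were set beside these values. Calls of single markers are those of the blocked fit of edgeR, which called 8.70% of all tested genes. Without the fold-change threshold it called 19.2%. Peptidergic markers (Calca, Tac1 and Kit) summed to 595, 599 and 608 CPM with vehicle and 848, 719.7 and 688 CPM with HC-HA/PTX3. The treated cultures lay above all vehicle cultures (exact permutation p = 0.1, the smallest possible), and 1 of the 3 was called in the blocked fit. This was Tac1, the precursor of substance P, with a log2 fold change of 1.005 (SE 0.0633, edgeR blocked adjusted p = 4.92e-05), while Calca was at 0.23 and Kit at -0.0427 without a call. Non-peptidergic markers (Mrgprd, P2rx3, Lpar3 and Plxnc1) summed to 548 ± 93.6 and 591 ± 118 CPM, with treated cultures higher in 2 of 3 pairs and 1 of 4 called, Mrgprd, higher. P2rx3, most of this sum, was at 0.0457, Plxnc1 at 0.20 and Lpar3 at -0.11, without a call. The markers of Sst-Nppb neurons summed to 128 ± 15.5 and 127 ± 1.504 CPM, most of it from Osmr, with a log2 fold change of -0.054. Of these 4, Nppb was called higher, at 0.89 (SE 0.197, edgeR blocked adjusted p = 0.0119), and Sst and Il31ra had log2 fold changes of 0.57 and 0.20 without a call. The C-LTMR list, named for low-threshold mechanoreceptors with C fibres, summed to 67.2 ± 10.5 and 82.1 ± 17.1 CPM, and the list of large A-fibre neurons to 956 ± 317 and 1027 ± 216 CPM (SD, n = 3 each), with no gene called. The C-LTMR sum was higher in the treated culture of 3 of 3 pairs. Th and Fam19a4 of that list, at 0.44 and 0.29, and Pvalb of the A-fibre list, at 0.34, missed only the fold-change threshold (edgeR blocked adjusted p = 0.0172, 0.0323 and 0.0436). Whether the share of a neuron class had a part in the Pomc values was not tested.

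Of the non-neuronal lists, fibroblast markers had 2 of 5 genes called in the blocked fit, Col1a1 and Col3a1, both lower, against 8.70% of all tested genes. Col1a1, a collagen, had a log2 fold change of -1.62 (SE 0.165, edgeR blocked adjusted p = 0.000547), and Col3a1 of -0.96. The values of Dcn, Lum and Pdgfra were -0.092, -0.31 and -0.25, without a call. Schwann cell markers, led by Pmp22, summed to 827 ± 308 and 784 ± 275 CPM, with 0 of 4 called, although Mbp, at -0.31, missed only the fold-change threshold (edgeR blocked adjusted p = 0.0139). Mural cell markers summed to 472 ± 62.5 and 413 ± 121 CPM, with 1 of 4 called lower, Acta2. Rgs5, the most abundant mural marker in CPM, was higher in the treated culture of 3 of 3 pairs, at a log2 fold change of 0.15 without a call. Satellite glia markers, led by Apoe, had 0 of 5 called, but 3 missed only the fold-change threshold, in both directions. These were Fabp7 and Kcnj10, at -0.40 and -0.34, and Glul, at 0.28 (edgeR blocked adjusted p = 0.0154, 0.0108 and 0.0198). Of all tested genes, 19.2% passed the adjusted p without that threshold. Macrophage markers, led by Lyz2, summed to 72.5 ± 8.90 and 72.1 ± 13.5 CPM, and endothelial markers, led by Cdh5, to 185 ± 9.82 and 179 ± 21.8 CPM, with none called. Lymphocyte markers summed to only 4.17 ± 0.606 and 3.97 ± 1.10 CPM (SD, n = 3 each), nearly all from Ptprc. The T cell genes Cd3e and Cd3d had 11 and 7 counts in total, and each was at 0 in some cultures. The part of these cells in the opioid values was not tested.

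**Figure D5:**
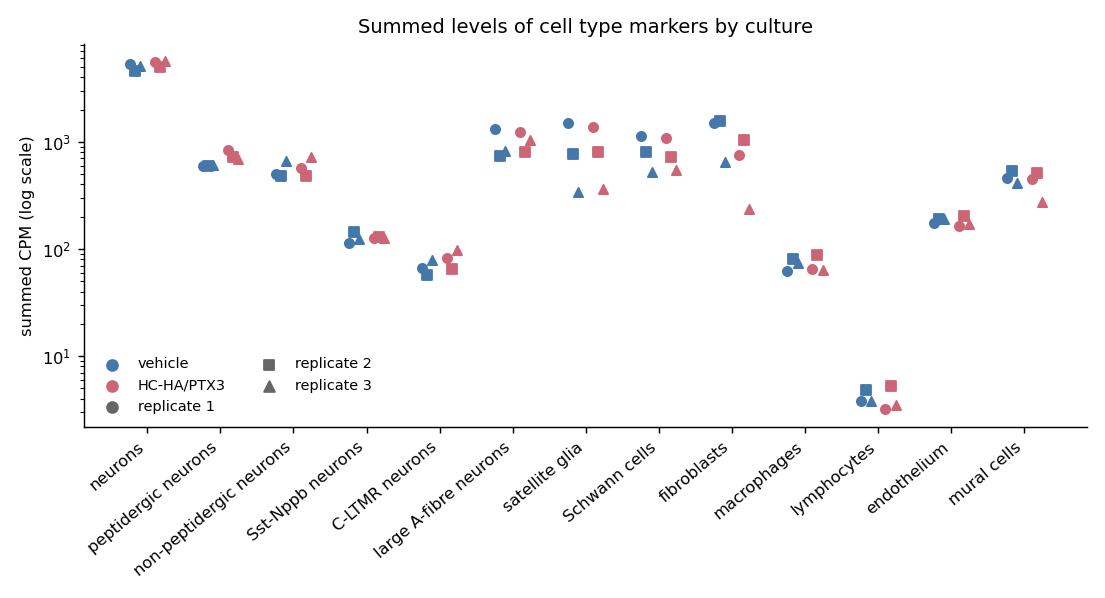
Summed CPM of 13 cell type marker lists in each culture on a log axis, with vehicle in blue and HC-HA/PTX3 in red. Neuronal markers stand highest, satellite glia and Schwann cell markers stand in the order of the replicate numbers in both groups, and fibroblast markers are lower in the treated culture of each pair.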

How the data were processed

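For each of 6 cultures the authors deposited whole-number counts per gene symbol, neither normalized nor pooled. Libraries were depleted of ribosomal RNA, read as pairs, aligned to mm10 and counted with featureCounts. The methods name HISAT2, but STAR stands in the column headers of the count tables. The strand setting is not given in the sources used here, so reads of antisense genes could have been counted with their partners. Groups and replicate numbers came from the sample titles.

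Counts were analysed in R 4.3.3 with edgeR 4.0.16 (filterByExpr, TMM, glmQLFit, glmQLFTest), DESeq2 1.42.0, limma 3.58.1 and sva 3.50.0. Each tool was tried on simulated counts with known changes. Library sizes were summed over the genes that passed the filter. A first run had summed them before the filter, and the change was made after both counts of calls had been seen, since it is the usual edgeR step and the one used in an earlier analysis of these data. The counts of the first run stand among the alternatives. Calls used the thresholds of the methods, which state a batch term without listing the batches. The methods name limma for the tests, and ComBat-seq or edgeR to adjust for batches. ComBat-seq with limma-trend was run here as a route of that kind, with the replicate number as batch. Over 18277 genes, the departures from the group mean of cultures with a shared number had correlations of 0.631, 0.536 and 0.774, each over the limit of 0.1 for treating the numbers as pairs, and those of cultures with different numbers of -0.613 to 0.148. Vehicle replicate 2 with treated replicate 1, at 0.148, and vehicle replicate 1 with treated replicate 2, at 0.104, were also over it. The limit alone therefore did not set same-numbered cultures apart. Libraries of a group had a chi-square of 31.4 to 108 per degree of freedom against counting error, so none was a duplicate.

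Intervals of single counts are exact Poisson intervals at 95%, and those of ratios of summed counts come from the exact Clopper-Pearson interval. Positions and exon lengths are those of GENCODE M21 on mm10, and upstream bases those of RefSeq on GRCm38.p6. The members and lists were chosen with earlier results of these data known. All 10 members were named, and in each pathway list the called genes, the most abundant gene per kilobase and, without a call, the gene with the smallest unadjusted p in the blocked fit. Pathway genes that missed only the fold-change threshold in the blocked fit, or that were called under another setting, were named in addition. So were the other Kcnj genes listed with Kcnj6. Asip was listed but could not be matched to a single symbol. A few other listed genes are not reported here, and list sums and medians do not hold them. Alternatives were other filters, scalings, tests and library sizes, ComBat-seq, no fold-change threshold, and each culture or pair left out.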

Additional observations from a re-analysis of the deposited data

How the results depend on the processing

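Of 200 values of the 8 tested opioid genes under other settings, 199 gave no call and 1, Pomc after ComBat-seq and limma-trend, gave a call at a log2 fold change of 0.64. The opioid genes called were 0 in both fits of edgeR and 1 after ComBat-seq. With each culture left out in turn, 0 opioid genes and 0 genes in all were called with the treatment only, and without a pair 0 opioid genes were called and 878 to 1571 genes in all, the lowest without pair 1. The values of Penk, Pdyn and Pcsk1, and with the treatment only those of Oprd1 and Pcsk2, had the other sign under some settings, without a call. Mean levels moved by less than 1 SD in 20 of 20 cases with raw library sizes.

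All genes called with the treatment only were 0 by edgeR and by limma-voom, 343 by DESeq2, 2127 after ComBat-seq, 3 with every gene of at least 1 count, 2 with upper-quartile scaling, 2 with library sizes summed before the filter (chosen after seeing the data) and 1591 with the replicate block. The blocked fit called 1591 genes, 0 with no replicate block and 3505 without the fold-change threshold. Pathway genes called, an alternative chosen after seeing the data, were 0 with the treatment only, 3 with the replicate block, 1 by DESeq2 and 6 after ComBat-seq. With the replicate block they were 3, and 0 without the block, 2 with at least 10 counts in every culture, 4 with every gene of at least 1 count, 2 by DESeq2, 14 without the fold-change threshold and 0 to 2 without a pair. The 14 of 71 stood beside 3505 of all 18277 tested genes (19.2%), and the 6 of 71 after ComBat-seq beside 2127 (11.6%). The cause of the differences between settings was not tested. DESeq2 gave no adjusted p for Pomc with the block.

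Counting error limits Pnoc and Oprk1, and adds to the spread of Pomc, Pdyn and Oprl1. In the blocked fit the 95% intervals of Penk, Oprm1, Oprd1, Pcsk1 and Pcsk2 lay within the fold-change threshold, and those of Pomc, Pdyn and Oprl1 did not. Pairs rest on replicate numbers and not on stated batches, and the ComBat-seq route makes no allowance for its batch step when it estimates the spread. Protein and peptide levels were not analysed here.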
